A study of Mus musculus with 6 samples.

Results

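Expression of 10 transcription factors that establish the natural killer (NK) cell lineage and drive its maturation was measured in CD27+ NK cells lacking microRNA-15a and microRNA-16-1. The factors were Tbx21, Eomes, Zeb2, Prdm1, Id2, Nfil3, Ets1, Tox, Gata3 and Runx3, each represented by 1 probe set among the 35556 of the array, or 10 of the 19938 genes with an unambiguous annotation. They were selected by gene symbol, from a list drawn up with earlier results of these data known. Spleens of C57Bl/6 mice aged 8 to 12 weeks were sorted for CD3-negative cells positive for NK1.1, CD27 and YFP straight after harvest, and their total RNA was hybridised to Affymetrix mouse gene arrays. There were 3 arrays of the genotype labelled 15a/16-1FKO (FKO below) and 3 of the control genotype (Ctrl), and the YFP gate applied to both. The Cre driver behind the YFP signal, the deleted segment and the number of animals per array are not given in the sources used here. Arrays of 1 genotype are described by the submitters as technical replicates, but their sex-linked transcripts, given below, were not those of repeats of 1 RNA sample. What the arrays of a genotype share is not known, and p-values measure only the spread between these arrays.

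NK cells develop from lymphoid progenitors under factors that act in sequence. NFIL3, ETS1, ID2 and TOX are needed early in the lineage, and the T-box factors EOMES and T-BET (encoded by Tbx21) then carry cells through maturation. ZEB2 and BLIMP-1 (encoded by Prdm1) act late, as CD27 is lost and CD11b is kept. MicroRNAs lower the stability and translation of messenger RNAs that pair with their seed, bases 2 to 8. The genotypes were set against each other to ask how these factors behave in CD27+ NK cells without the microRNA-15a and microRNA-16-1 genes. The title of the study has microRNA-15/16 antagonising c-Myb in the control of NK cell maturation.

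The mature microRNAs of the deleted locus are shown because both carry the same seed as the microRNAs of the related Mir15b and Mir16-2 cluster on another chromosome. Capitals mark the seed, and sequences and positions are from RefSeq on GRCm38.p6. microRNA-15a-5p lies at chr14:61632075-61632096 and the Mir16-1 copy of microRNA-16-5p at chr14:61631936-61631957, both on the minus strand. microRNA-15b-5p lies at chr3:69009775-69009796 and the Mir16-2 copy of microRNA-16-5p at chr3:69009918-69009939, both on the plus strand.
mmu-miR-15a-5p: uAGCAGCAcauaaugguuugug
mmu-miR-16-5p: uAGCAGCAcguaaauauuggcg
mmu-miR-15b-5p: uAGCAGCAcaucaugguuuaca
The copy of microRNA-16-5p from Mir16-2 is identical in sequence to the one from Mir16-1.

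Brightness was described against a log2 level of 4.13, the 95th percentile of the means of 1027 olfactory receptor genes. Of the 2 deleted microRNA genes, Mir15a differed past the threshold and Mir16-1 did not. The probe set of the microRNA-15a precursor gene, Mir15a, had log2 levels of 4.37, 3.53 and 3.43 on the FKO arrays, against 7.14, 6.02 and 6.69 on the Ctrl arrays. Its log2 difference was -2.84 (SE 0.31, limma adjusted p = 0.0296). FKO replicates 2 and 3 lay under the olfactory receptor level, so that background limits the size this difference can take. Mir15a was 1 of 4 genes past an adjusted p of 0.05 (limma) among all genes tested, or 0.0201%. The others were Gfra2 (1.95), Mtmr9 (1.89) and Rcbtb2 (1.29), all higher in FKO cells and, like Mir15a, on chromosome 14. What that position means for differences of other genes there was not tested. The probe set of Mir16-1 averaged 2.76 ± 0.21 in FKO cells and 3.39 ± 0.33 in Ctrl cells (n = 3 arrays each), both under the olfactory receptor level. Its log2 difference was -0.63 (SE 0.19, limma adjusted p = 0.999), with no overlap between genotypes (8.33% of all genes had none). Medians of the 6 arrays lay between 4.23 and 4.33 on the log2 scale. Arrays have no read depth, and precision was set by their number. Sex-linked transcripts were unequal between arrays of a genotype. Xist, transcribed from the inactive X chromosome, ranged from 7.56 to 8.84 on FKO arrays and from 3.89 to 9.65 on Ctrl arrays, and the Y-linked Eif2s3y from 6.18 to 7.88 and from 2.33 to 7.95. Both transcripts lay above the olfactory receptor level on all 3 FKO arrays and on 1 of 3 Ctrl arrays. Ctrl replicate 1 had 9.65 for Xist and 2.33 for Eif2s3y, and Ctrl replicate 2 had 3.89 and 7.95.

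The cells carried NK markers in both genotypes. The activating receptor Ncr1 averaged 10.57 ± 0.14 in FKO cells and 10.53 ± 0.17 in Ctrl cells, and Klrb1c, the gene of the sorted antigen NK1.1, 9.73 ± 0.10 and 9.72 ± 0.05 (log2 level, mean ± SD, n = 3 arrays each). All 10 measured NK markers lay above the olfactory receptor level. So did 6 of 12 measured T cell markers, 3 of 9 B cell markers, 6 of 13 myeloid markers and 4 of 8 erythroid and platelet markers. Among all genes tested, 10892 of 19938 lay above that level. Of the T cell markers, the signalling adaptor Lat (7.86 over the 6 arrays) and the costimulatory receptor Cd28 (8.21) had the highest log2 levels. Cd28 differed by 0.43 (SE 0.14, limma adjusted p = 0.999), with no overlap between genotypes (8.33% of all genes had none). Cd3d (7.33), Cd3g (6.84) and Cd3e (6.34), which encode subunits of the CD3 antigen sorted against, also lay above the olfactory receptor level. Their log2 differences were 0.16 (SE 0.22), 0.12 (SE 0.26) and -0.19 (SE 0.27). The helper T cell marker Cd4 (3.50) and the cytotoxic T cell marker Cd8a (3.52) lay under the olfactory receptor level. The myeloid marker S100a8 (7.45) differed by 0.77 (SE 0.32, limma adjusted p = 0.999), and its genotypes overlapped. Over the 13 measured myeloid markers the median difference was -0.05. In a bulk sample, fewer cells of a type and less RNA per cell cannot be told apart.

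None of the 10 factors passed the threshold, and none was separated between the genotypes by its array values. Adjusted p-values were 0.999 for all 10 (limma, Benjamini-Hochberg over 19938 genes), where 0.0201% of all genes passed the threshold. An unadjusted p under 0.05 was found for 0 of 10, where 3.47% of all genes had one. The arrays of the genotypes overlapped for all 10 factors, while 8.33% of all genes had no overlap. Counts of 0 among 10 genes lie near these shares. Log2 differences ran from -0.11 for Gata3 to 0.20 for Eomes, with 4 positive and 6 negative, beside 47.9% positive among all genes. With a covariate for the sex-linked transcripts every factor kept its sign and 0 of 10 passed. The median of the 10 was -0.04, against -0.01 over all genes tested. All 10 differences were under 0.25 in size, as were 84.9% of those of all genes. The 95% intervals of all 10 lay within 1 of zero on the log2 scale, which is a 2-fold change (97.7% of all genes), and those of 7 lay within 0.5 (52.4% of all genes).

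**Figure D1:**
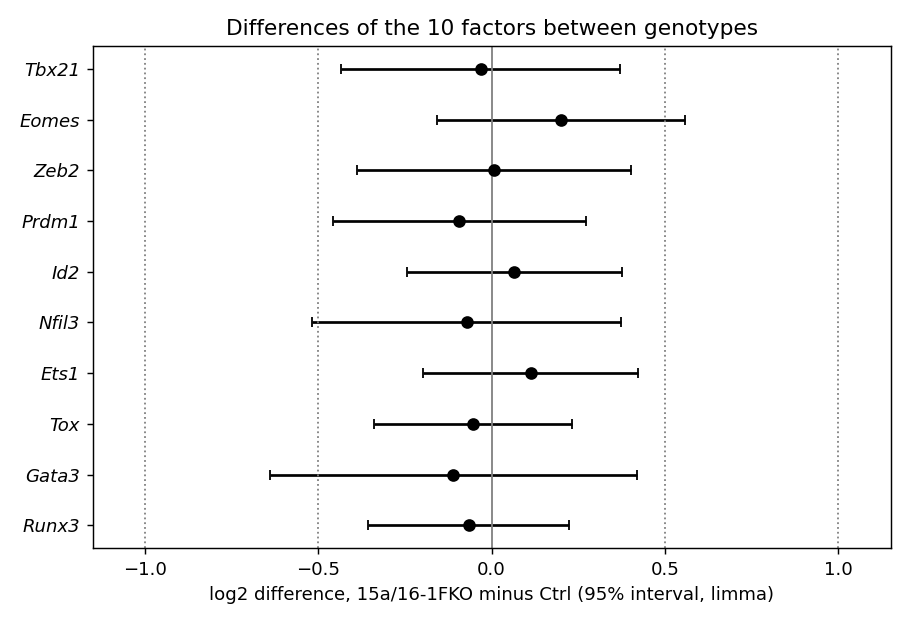
Log2 differences of the 10 factors, 15a/16-1FKO minus Ctrl (x axis), each a point with its 95% interval from limma. Every interval includes 0 and lies inside the outer dotted lines at -1 and 1; that of Gata3 is the widest, from -0.64 to 0.42.

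Among the T-box factors, which control cytotoxic maturation, Tbx21 had nearly equal means and Eomes the largest difference of the 10. Tbx21 had log2 levels of 8.48, 8.52 and 7.96 on FKO arrays, against 8.31, 8.51 and 8.24 on Ctrl arrays. FKO replicate 3 was the lowest of the 6 arrays and FKO replicate 2 the highest. The log2 difference of Tbx21 was -0.03 (95% interval -0.43 to 0.37), and its interval covers levels in FKO cells from 0.741 to 1.29 times those in Ctrl cells. Eomes had log2 levels of 10.19, 9.93 and 9.82 on FKO arrays, against 9.89, 9.57 and 9.88 on Ctrl arrays. FKO replicates 1 and 2 lay above every Ctrl array, and FKO replicate 3 lay between Ctrl values. The log2 difference of Eomes was 0.20 (SE 0.16, unadjusted p = 0.239 by limma), and the exact two-sided permutation test of 3 against 3 arrays gave p = 0.4, where 0.1 is the smallest value that such a design allows. The balance of the pair, log2 Tbx21 minus log2 Eomes, was -1.71, -1.41 and -1.86 on FKO arrays, against -1.58, -1.06 and -1.64 on Ctrl arrays. Its genotype means differed by -0.23 and its arrays overlapped; since brightness differs between probe sets, only the change between arrays can be read.

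For the factors of late maturation the arrays of the genotypes overlapped as well. Zeb2, a repressor that acts downstream of T-BET in terminal maturation, had log2 levels of 7.47, 7.28 and 7.17 on FKO arrays, against 7.63, 7.07 and 7.19 on Ctrl arrays. Both the highest and the lowest array were Ctrl, and the log2 difference was 0.01 (95% interval -0.39 to 0.40). Prdm1 encodes BLIMP-1, a repressor that rises as NK cells mature. Its log2 levels were 6.94, 6.72 and 6.45 on FKO arrays, against 6.85, 6.89 and 6.65 on Ctrl arrays, with a difference of -0.09 (95% interval -0.46 to 0.27). The highest and the lowest value of Prdm1 were both from FKO arrays, replicates 1 and 3.

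**Figure D2:**
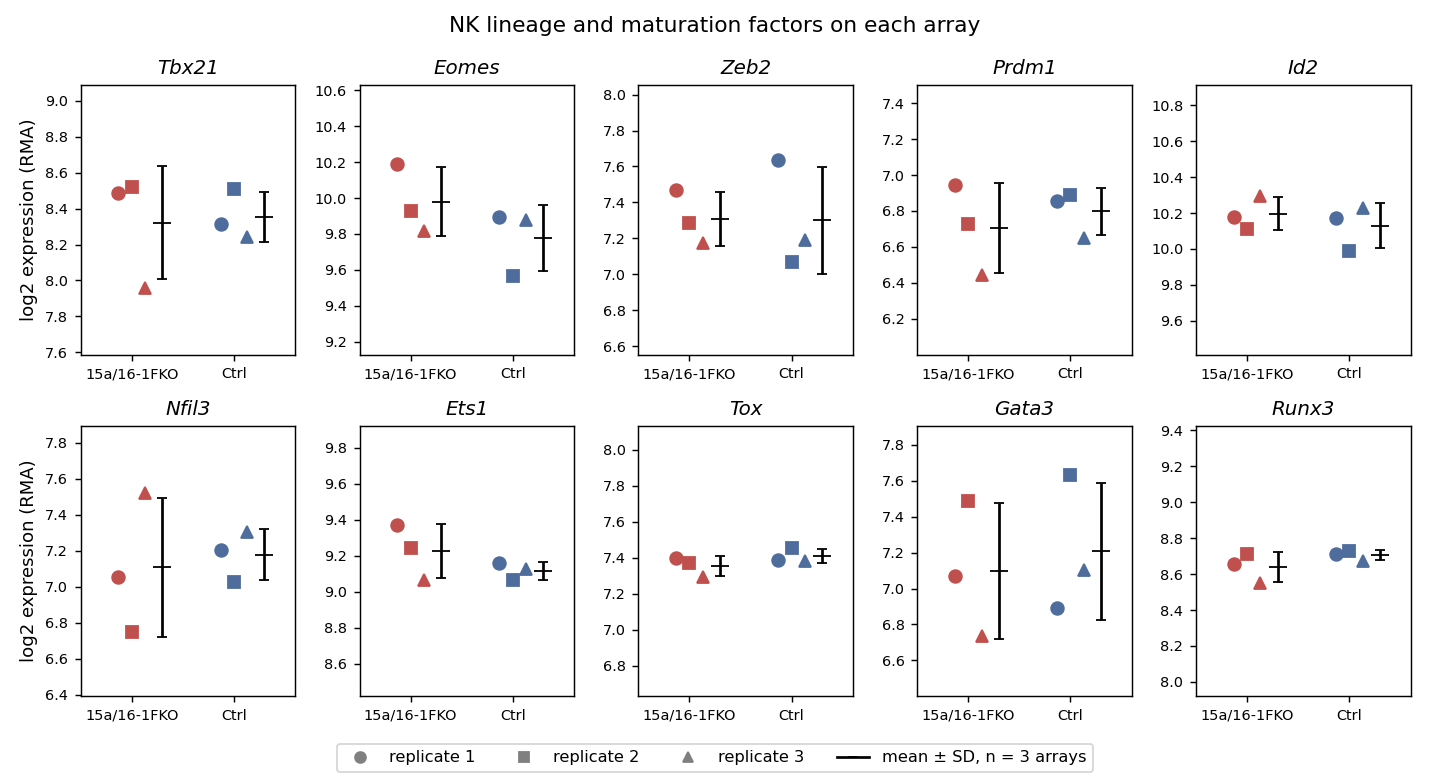
Log2 expression (y axis, RMA, each panel spanning 1.5 log2 units) of the 10 factors on each array, 15a/16-1FKO left and Ctrl right in each panel, with marker shape giving the replicate number and bars the mean ± SD of 3 arrays. The genotypes overlap in every panel, and Tox and Runx3 have the narrowest spread.

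The early lineage factors gave small differences of both signs. Id2, an inhibitor of E protein transcription factors, had log2 levels of 10.18, 10.11 and 10.29 on FKO arrays, against 10.17, 9.99 and 10.23 on Ctrl arrays. Its difference was 0.07 (95% interval -0.24 to 0.37). Nfil3, a basic leucine zipper factor that promotes Id2 and Eomes expression in NK progenitors, had log2 levels of 7.05, 6.75 and 7.52 on FKO arrays, against 7.20, 7.03 and 7.31 on Ctrl arrays. The FKO arrays of Nfil3 held both extremes, and the difference was -0.07 (95% interval -0.52 to 0.37). Ets1, an ETS-domain activator, had log2 levels of 9.37, 9.24 and 9.07 on FKO arrays, against 9.16, 9.06 and 9.12 on Ctrl arrays. FKO replicates 1 and 2 of Ets1 lay above all Ctrl arrays and replicate 3 among them, with a difference of 0.11 (SE 0.14, exact permutation p = 0.3). Tox, an HMG-box factor, had log2 levels of 7.40, 7.37 and 7.29 on FKO arrays, against 7.39, 7.45 and 7.38 on Ctrl arrays. The difference of Tox was -0.05 (95% interval -0.34 to 0.23).

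Gata3 varied most between arrays and Tox and Runx3 least. Gata3, a zinc finger factor of T cells and innate lymphoid cells that also serves NK maturation, had log2 levels of 7.07, 7.49 and 6.74 on FKO arrays, against 6.89, 7.63 and 7.10 on Ctrl arrays. Its difference was -0.11 (95% interval -0.64 to 0.42), and its standard deviation within genotypes, 0.38, was above that of 91.7% of genes. The highest value was that of Ctrl replicate 2, the array with the lowest Xist level. Among FKO arrays Xist was lowest on replicate 1 (7.56), while Gata3 was highest on replicate 2. What caused the spread of Gata3 was not tested. With the sex-linked covariate the difference of Gata3 was -0.10 and its SE 0.20, against an SE of 0.24 without it. Runx3, a Runt-domain factor of cytotoxic lymphocytes, had log2 levels of 8.66, 8.71 and 8.55 on FKO arrays, against 8.71, 8.73 and 8.67 on Ctrl arrays. FKO replicates 1 and 3 lay under every Ctrl array, and replicate 2 lay among them. The difference of Runx3 was -0.07 (95% interval -0.36 to 0.22, exact permutation p = 0.2). The standard deviations of Tox, 0.05, and Runx3, 0.06, were above those of 0.948% and 2.24% of genes. Limma moves such variances toward a value shared by all genes, so the intervals of Tox and Runx3 are wider than their own spread would give.

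Single arrays set the direction of several differences. FKO replicate 3 was the lowest FKO array for 8 of the 10 factors and the highest for the other 2, Id2 and Nfil3. Among the 10892 genes above the olfactory receptor level, it was the lowest FKO array for 38.8%. The median deviation of the 10 factors from their FKO means was -0.15 on that array, against -0.03 for genes above the olfactory receptor level. Its mean over the NK markers was 10.65, beside 10.80 and 10.65 on the other FKO arrays and 10.62 to 10.67 on Ctrl arrays. Its mean over the T cell markers, 5.33, was the highest of the 6 arrays, the others lying between 5.09 and 5.29. Its mean over the myeloid markers, 4.49, was also the highest, the others lying between 4.26 and 4.48. Over the B cell markers its mean was 3.43, beside 3.42 to 3.77 on the others. The part of these markers in the low values of FKO replicate 3 was not tested. Without it, 7 of the 10 differences were positive, and those of Tbx21 (0.15), Prdm1 (0.04) and Gata3 (0.07) changed sign. Eomes and Ets1 then had no overlap between genotypes, both higher in FKO cells, where 19.8% of all genes had no overlap in that comparison of 2 against 3 arrays, and 0 of 10 factors passed the threshold (limma, lowest adjusted p = 0.991).

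**Figure D3:**
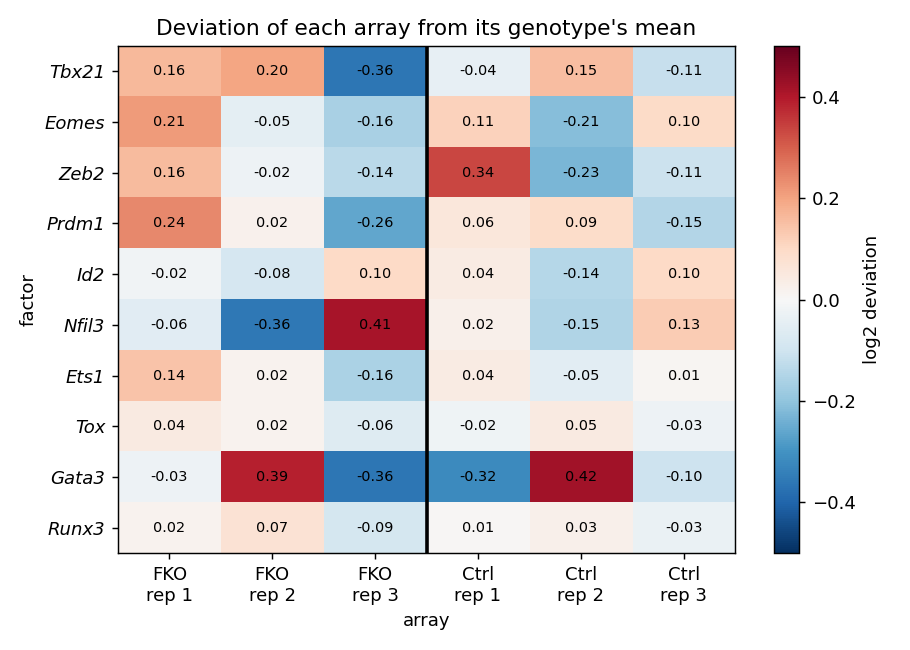
Deviation of each array from the mean of its genotype (log2, colour and printed value) for the 10 factors (rows), with the 3 FKO arrays left and the 3 Ctrl arrays right of the line. FKO replicate 3 is below its mean for 8 factors and above it for Id2 (0.10) and Nfil3 (0.41).

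Eomes, Ets1, Tox and Runx3 kept their sign whichever array was left out. The difference of Eomes then lay between 0.09 and 0.28, that of Ets1 between 0.04 and 0.19, that of Tox between -0.08 and -0.02 and that of Runx3 between -0.10 and -0.02. The other 6 factors changed sign at least once, so that in this unpaired comparison the signs of Tbx21, Zeb2, Prdm1, Id2, Nfil3 and Gata3 depended on which arrays were used. Leaving out Ctrl replicate 2 turned 4 signs, after which Tbx21 was at 0.05, Zeb2 at -0.11, Id2 at -0.0049 and Gata3 at 0.10. Without FKO replicate 2, Nfil3 was at 0.11. Tox had no overlap, lower in FKO cells, without FKO replicate 1 (where 17.8% of all genes had none) and after a second quantile normalization (8.55%). Runx3 had none, also lower, without FKO replicate 2 (17.0%) or Ctrl replicate 3 (16.3%). No factor was free of overlap without Ctrl replicate 1 (17.2%) or 2 (18.4%).

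**Figure D4:**
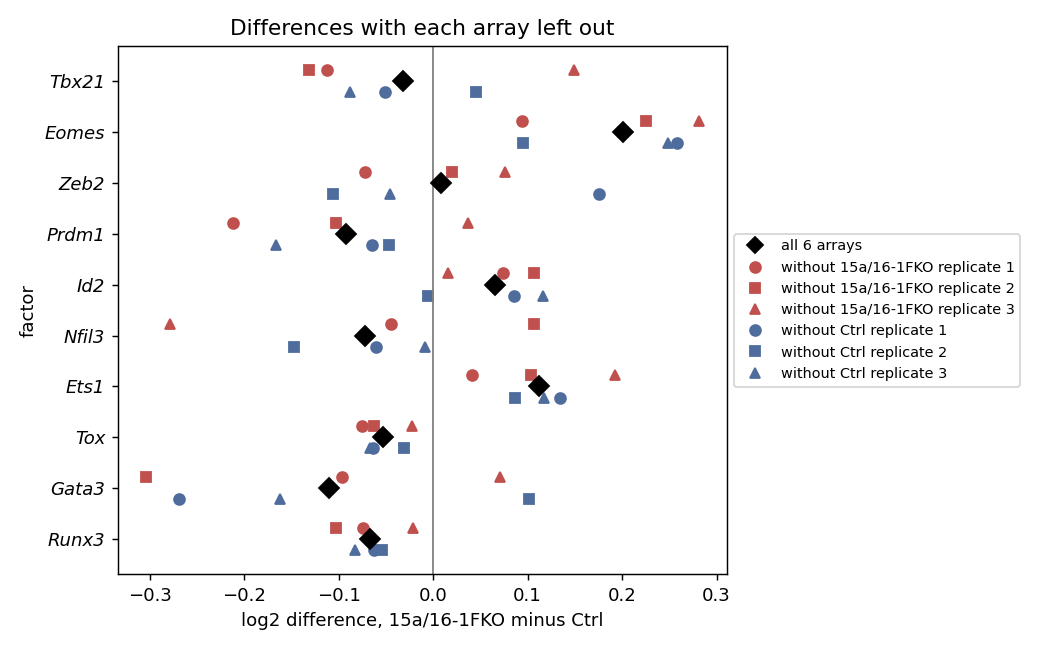
Log2 difference, 15a/16-1FKO minus Ctrl (x axis), of each factor with all 6 arrays (black diamonds) and with each array left out (coloured symbols, FKO arrays above and Ctrl arrays below the diamond). Points of Eomes, Ets1, Tox and Runx3 stay on 1 side of 0.

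Genes around these factors were described by lists, written with earlier results of these data known. Among all genes 47.9% of differences were positive, and the median was -0.01. Of 18 measured partners and relatives of the 10 factors, 15 had positive differences with a median of 0.11, 0 passed the threshold, and 1 had no overlap between genotypes (8.33% of all genes had none). That gene was Id3, an inhibitor of E proteins like Id2, at 4.54 ± 0.15 in FKO cells and 4.31 ± 0.08 in Ctrl cells (n = 3 each). The ETS-family genes Ets2, Fli1, Elf1 and Elf4 had log2 differences of 0.38 (SE 0.21), 0.27 (SE 0.17), 0.19 (SE 0.15) and 0.06 (SE 0.16). A second probe set of Elf4 differed by 0.40 (SE 0.17), with both means, 3.72 and 3.32, under the olfactory receptor level. Elf1 lies on chromosome 14, which carries the deleted locus. Cbfb, the common partner of RUNX proteins, differed by 0.10 (SE 0.13), Runx1 by 0.08 (SE 0.19), Tox2 by -0.04 (SE 0.17) and the ZEB2 relative Zeb1 by 0.22 (SE 0.21). With each array left out, 12 to 15 of the 18 were positive, and the median was 0.04 without Ctrl replicate 3 and 0.18 without FKO replicate 3.

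Of 23 other measured NK factors, 11 had positive and 12 negative differences, and 0 passed. The interferon regulatory factors Irf8 and Irf1 differed by -0.36 (SE 0.19) and -0.28 (SE 0.16), and a second probe set of Irf1 by -0.20 (SE 0.15). Myb, the factor of the study's title, had log2 levels of 7.38, 7.32 and 7.28 on FKO arrays, against 7.20, 7.08 and 7.05 on Ctrl arrays. All 3 FKO arrays of Myb lay above all Ctrl arrays, with a difference of 0.22 (95% interval -0.07 to 0.51, limma adjusted p = 0.999). The genes without overlap in this list were Myb, Irf1 and the quiescence factor Klf2 (-0.08, SE 0.13), the last named after its values were seen. Among all genes, 8.33% had no overlap.

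Of 19 measured genes that T-BET or EOMES activate in NK or T cells, 11 differences were positive and 8 negative. Their median was 0.02, and 0 passed. Granzyme B (Gzmb) had log2 levels of 8.58, 8.46 and 8.15 on FKO arrays, against 8.81, 9.13 and 8.75 on Ctrl arrays, with no overlap. Its difference was -0.50 (95% interval -0.88 to -0.12, limma adjusted p = 0.999), and it lies on chromosome 14. Interferon-gamma (Ifng) was the other gene of the list without overlap, where 8.33% of all genes had none. Its log2 levels were 7.84, 7.87 and 7.72 on FKO arrays, against 8.10, 8.34 and 7.89 on Ctrl arrays (difference -0.30, SE 0.15). The chemokine Ccl3 differed by -0.46 (SE 0.26) and the chemokine receptor Cxcr3 by 0.27 (SE 0.18). The other 15 genes of the list had differences between -0.25 (the interleukin-12 receptor subunit Il12rb2, SE 0.17) and 0.17 (the death ligand Tnfsf10, SE 0.20). Among them were the fractalkine receptor Cx3cr1 (-0.24, SE 0.23), perforin (Prf1, -0.14, SE 0.17), the interleukin-15 receptor subunit Il2rb (0.14, SE 0.13) and granzyme A (Gzma, -0.02, SE 0.13).

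The lists of stage genes leaned to 1 sign each. Of 15 measured genes of immature, CD27+ and CD11b-negative cells, 11 differences were positive (47.9% among all genes). The median of the list was 0.27, against -0.01 over all genes. Cd27 itself differed by 0.09 (SE 0.18). The negative gene Rgcc, on chromosome 14, differed by -0.29 (SE 0.14) and had no overlap between genotypes. Its means were 4.16 in FKO cells and 4.45 in Ctrl cells, near the olfactory receptor level, and FKO replicate 3 (4.08) lay under that level. No overlap was also found for 3 of the positive genes (8.33% of all genes had none). Of 12 measured genes of mature cells, 9 differences were negative, and the median of the list was -0.16. The 3 positive ones were Itgam, which encodes CD11b (0.02, SE 0.18), Klrg1 (0.02, SE 0.26) and S1pr5 (0.08, SE 0.15). In both lists 0 passed the threshold. Gzmb, described above, was the 1 mature gene without overlap (difference -0.50, SE 0.17). The stem cell factor receptor Kit had the smallest unadjusted p of the immature list, at 7.73, 7.78 and 7.56 on FKO arrays, against 6.73, 7.27 and 6.99 on Ctrl arrays (difference 0.69, SE 0.17, limma adjusted p = 0.999). In the mature list the chemokine Ccl9 differed by -0.44 (SE 0.19), with both means under the olfactory receptor level, and the ectonucleotidase Entpd1 by -0.65 (SE 0.32). With each array left out, 10 to 13 of the 15 immature genes and 0 to 5 of the 12 mature genes had positive differences. The median of the immature list was 0.14 without FKO replicate 2, 0.17 without Ctrl replicate 1 and 0.32 without FKO replicate 3. The lists were written with earlier results of these data known, so their counts are a description. They also share genes, so they are not separate observations. Gzmb, Klrg1, S1pr5 and Cx3cr1 are in the mature list and in that of T-BET or EOMES. Cxcr3 is in the immature list and in that of T-BET or EOMES, and Il7r and Ltb are in the immature list and the ILC1 list below.

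Type 1 innate lymphoid cells (ILC1) express T-BET with little EOMES in mouse liver. Of 12 measured genes associated with them, 6 had positive and 6 negative differences and 0 passed. Granzyme C (Gzmc, -0.74, SE 0.14, limma adjusted p = 0.842) had means under the olfactory receptor level and lies on chromosome 14, as Gzmb does. The integrin Itga1, whose Ctrl mean of 3.88 lay under that level, differed by 0.51 (SE 0.17). For the innate lymphoid cells that depend on GATA3 (ILC2), 7 measured markers had a mean log2 level of 3.86 to 4.08 on FKO arrays and 4.03 to 4.05 on Ctrl arrays. Of the 7, 4 lay above the olfactory receptor level, as did 10892 of all 19938 genes. The 4 were the cytokine gene Il13 (4.96 over the 6 arrays), Rora (4.86), Il9r (4.22) and Il17rb (4.20), while Il5 lay at 2.91.

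**Figure D5:**
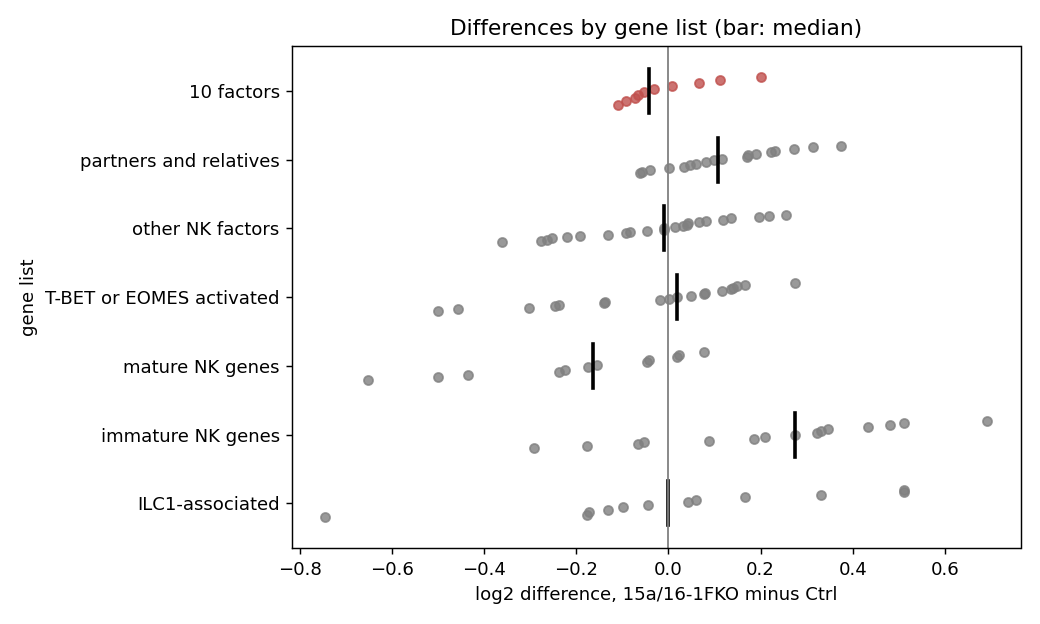
Log2 difference, 15a/16-1FKO minus Ctrl (x axis), of every measured gene (points) of the 10 factors and 6 gene lists (rows), with bars at the list medians. The 10 factors span -0.11 to 0.20, and the immature NK genes have the highest median, 0.27 with all 6 arrays.

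Promoter sequence was searched because Myb is the factor of the study's title. RefSeq windows of 250 bases before a transcript start (GRCm38.p6) were at hand for 8 of the 10 factors, in 12 windows, and not for Tox or Ets1. The MYB letters CAACNG or TAACNG, on either strand, occurred in 2 of the 12 windows, of Eomes and Zeb2, and in 43.1% of all 32851 windows. Eomes held 2 matches, starting 175 and 90 bases before the transcript start, and Zeb2 held 1 in 1 of its windows. Capitals below mark the matched letters, on the plus strand at chr9:118478002-118478031 and chr9:118478087-118478116 for Eomes, and on the gene's own strand, minus, at chr2:45117497-45117526 for Zeb2, where the match reads on the opposite strand.
Eomes, first match: ccaaaccagcaaTAACAGccaaataagcta
Eomes, second match: tagtgtcacctcTAACAGccaatagcaaag
Zeb2: ccccaggcgaggCTGTTGgcgtccgcaccc
The T-box letters AGGTGTNA occurred in 0 of the 12 windows and in 2.68% of all windows. The ETS letters CCGGAAG or AGGAAGT occurred in 1 of the 12 windows, of Tbx21, and in 14.1% of all windows. Matches describe letters in these windows, and binding was not measured.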

How the data were processed

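Values are log2 expression levels as deposited by the authors, from 0.74 to 13.6 on 6 arrays. RMA and Partek 6.6 appear in the submitters' processing notes, their roles unstated. RMA compresses differences of dim probe sets. No genome build was named in the sources used here. GEO's platform annotation named the probe sets (21789 with 1 symbol, 1621 with several, 12146 not listed), and a check of symbols by Entrez identifier in the GRCm38.p6 gene table changed 0. The brightest probe set stood for each gene, which gave 19938 genes. FKO and Ctrl were compared with limma 3.58.1 in R 4.3.3 (lmFit, eBayes, two-sided, genotype as the only term, Benjamini-Hochberg over all genes, threshold 0.05), and the fit was tested on simulated data. Folds and intervals come from that fit. The 10 factors, the gene lists and the olfactory receptor level were chosen with earlier results of these data known. Named genes are the factors, the deleted locus, sex-linked and NK marker genes, Myb, and in each list some of the 4 with the smallest p (for marker lists also the brightest), with a few relatives added afterwards. Alternatives were another centring and normalization, a brightness filter, other priors and weights, other probe set rules, the replicate number as a block, a sex-linked covariate and each array left out.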

Additional observations from a re-analysis of the deposited data

How the results depend on the processing

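No factor passed the threshold in any of 16 alternatives (limma, lowest adjusted p = 0.988), and the median difference of the 10 factors lay between -0.07 and 0.05. Leaving out 1 array gave 3 to 7 positive differences and 0 to 2 factors without overlap between genotypes, where 16.3% to 19.8% of all genes had none. With 1 array left out, 2 to 3 genes were called among all genes. Ranges over the arrays left out were -0.13 to 0.15 for Tbx21, -0.11 to 0.18 for Zeb2, -0.21 to 0.037 for Prdm1, -0.0049 to 0.12 for Id2, -0.28 to 0.11 for Nfil3 and -0.30 to 0.10 for Gata3, all with changes of sign. A second quantile normalization turned Zeb2 to -0.032 and left 1 factor, Tox, without overlap, lower in FKO cells (8.55% of all genes had none). With all 35556 probe sets tested, 0 genes were called (1214 had an unadjusted p under 0.05). With the sex-linked covariate 2 were called. The cause of these shifts was not tested. Neither the labels nor the arrays settled whether replicate numbers pair the arrays: deviations of same-numbered arrays correlated at 0.05, 0.15 and 0.14 across all genes, each array correlating best with its own number, and at 0.12, 0.21 and 0.18 across genes above the olfactory receptor level. Between same-numbered arrays Id2 differed by 0.0084, 0.12 and 0.06 and Runx3 by -0.06, -0.02 and -0.12. With the replicate block 3 genes were called in place of 4, Eomes had a difference of 0.20 (SE 0.15), and 0 factors passed. The same replicate number was highest in both genotypes for 8 of the 10 factors and for 41.4% of genes above the olfactory receptor level.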
